A study of Mus musculus with 39 samples.

Results

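Layer identity genes mark the laminae of the neocortex, and 10 of them were followed here in nuclei that had been captured by 2 sorting techniques. The members were taken by name: Cux1, Cux2, Rorb and Rasgrf2 for the upper layers, Bcl11b (Ctip2), Fezf2 and Etv1 for layer 5, and Tbr1, Tle4 and Foxp2 for layer 6. All 10 of the 24421 genes listed in the nuclear RNA-seq tables were found, and all 10 passed the filter on low values in each batch. In the ATAC-seq peak lists, 205 of 170178 merged regions lay over the bodies of these genes or within 3 kb of their 16 annotated start sites.

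The nuclei came from the neocortex of adult male and female mice that carried Arc creERT2(TG/WT) and, as either M/WT or M/M, the allele R26 CAG-Sun1-sfGFP-Myc, which puts superfolder GFP (sfGFP) on the nuclear envelope after Cre recombination. Every mouse received tamoxifen before a social interaction test, so the tag marked cells in which the Arc promoter, which is driven by neuronal activity, was on around that time. It was not restricted to a layer or to neurons by any other element. From the same preparations, sfGFP+ nuclei were taken either on magnetic beads coated with anti-GFP (INTACT-nuclei) or by flow sorting (FANS-nuclei), and there was no untagged or unsorted group. Nuclear RNA-seq was made from 10000 nuclei per library in 3 batches from distinct biological sources, with 4 FANS and 4 INTACT libraries in batch 1, 7 and 4 in batch 2, and 7 and 5 in batch 3, which makes 31 libraries. A further 2 labelled libraries of batch 2 were not analysed here. ATAC-seq was made from 50000 nuclei per library, in 3 technical replicates per technique from 1 biological source. Another passage of the study's methods gives a smaller number of nuclei for ATAC-seq. Batch, biological source and RNA quality, which the study describes as higher in batch 1, cannot be told apart. The labels do not say whether libraries of 1 batch came from separate animals, so p-values measure the spread between these libraries, which may be technical.

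Projection neurons of the neocortex are born in sequence and settle in layers, and each layer is recognised by a small set of transcription factors. CUX1 and CUX2 are homeodomain proteins of upper-layer neurons, RORB is an orphan nuclear receptor of layer 4, and RASGRF2 is an exchange factor for Ras and Rac that is concentrated in upper layers. FEZF2 and BCL11B are zinc-finger proteins that direct the subcerebral projection neurons of layer 5, and ETV1 is an ETS factor of other layer 5 neurons. TBR1 (a T-box factor), TLE4 (a Groucho corepressor) and FOXP2 (a forkhead factor) mark the corticothalamic neurons of layer 6. Several of these genes are also transcribed outside this setting, for example Bcl11b and Foxp2 in striatal neurons, Bcl11b in interneurons and Rorb in thalamus.

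The start sites of Cux1, Cux2 and Fezf2 are shown first because Cux1 and Fezf2 changed in batch 1 and the technique difference of Cux1 and Cux2 changed between batches. Bcl11b also changed in batch 1, and its start is not printed. Each stretch holds 250 bases before and 50 bases after an annotated start, from RefSeq on GRCm38.p6 (the assembly behind mm10), is written 5′ to 3′ on the gene's strand, and overlapped a region with a peak in all 6 ATAC lists. Capitals mark CG dinucleotides.
Cux1, chr5:136565932-136566231, minus strand: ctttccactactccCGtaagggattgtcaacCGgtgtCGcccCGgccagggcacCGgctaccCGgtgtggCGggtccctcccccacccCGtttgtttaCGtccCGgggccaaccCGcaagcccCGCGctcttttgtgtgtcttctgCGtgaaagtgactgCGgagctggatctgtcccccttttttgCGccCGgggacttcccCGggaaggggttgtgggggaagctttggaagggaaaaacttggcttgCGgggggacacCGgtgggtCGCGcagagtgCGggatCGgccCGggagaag
Cux2, chr5:122049802-122050101, minus strand: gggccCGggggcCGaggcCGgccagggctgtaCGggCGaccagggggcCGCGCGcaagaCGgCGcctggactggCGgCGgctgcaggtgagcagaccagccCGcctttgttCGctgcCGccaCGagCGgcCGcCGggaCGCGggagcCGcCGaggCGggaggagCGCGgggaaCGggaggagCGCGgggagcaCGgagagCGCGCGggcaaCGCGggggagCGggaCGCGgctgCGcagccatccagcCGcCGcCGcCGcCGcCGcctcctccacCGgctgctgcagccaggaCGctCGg
Fezf2, chr14:12345816-12346115, minus strand: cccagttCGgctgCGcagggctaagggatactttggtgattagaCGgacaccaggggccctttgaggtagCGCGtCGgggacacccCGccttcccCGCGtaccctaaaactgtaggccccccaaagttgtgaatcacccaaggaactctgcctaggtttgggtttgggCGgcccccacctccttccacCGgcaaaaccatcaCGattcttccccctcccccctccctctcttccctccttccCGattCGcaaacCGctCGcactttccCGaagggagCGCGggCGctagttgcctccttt

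The Cux2 start held 48 CG dinucleotides at a GC content of 80.3%, the Cux1 start 25 at 65%, and the Fezf2 start 20 at 61.3%. The medians over 32851 mouse promoters of the same length were 7 CG dinucleotides and 52.7% GC. These 3 starts therefore lay in CG-rich sequence. A second annotated start of Cux2, chr5:122047776-122048075, is not printed and held 4 CG dinucleotides at 56.7% GC. An AP-1 motif (TGANTCA, either strand) occurred in the Fezf2 stretch and in neither of the other two, and 7.81% of all promoters held it. A GC box (GGGCGG, either strand) was found in the Fezf2 stretch only, against 35.7% of all promoters.

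Intronic regions are shown next because the regions found with a single technique lay almost entirely in introns. Each window holds the plus strand of mm10 for 100 bases on either side of the summit of the tallest peak in its region. The windows in Cux1 and Cux2 had a peak in each FANS list and in no INTACT list, the Foxp2 window had the opposite pattern, and the Rasgrf2 window is the tallest region of all members and had a peak in all 6 lists.
Cux1, chr5:136506370-136506570: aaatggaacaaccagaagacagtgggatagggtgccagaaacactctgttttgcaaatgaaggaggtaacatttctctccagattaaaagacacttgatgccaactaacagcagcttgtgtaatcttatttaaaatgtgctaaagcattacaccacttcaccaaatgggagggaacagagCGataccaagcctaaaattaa
Cux2, chr5:122008129-122008329: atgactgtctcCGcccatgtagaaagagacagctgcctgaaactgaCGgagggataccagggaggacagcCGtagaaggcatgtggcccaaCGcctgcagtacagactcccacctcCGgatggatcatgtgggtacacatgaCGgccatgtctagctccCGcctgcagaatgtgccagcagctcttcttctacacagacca
Foxp2, chr6:15252938-15253138: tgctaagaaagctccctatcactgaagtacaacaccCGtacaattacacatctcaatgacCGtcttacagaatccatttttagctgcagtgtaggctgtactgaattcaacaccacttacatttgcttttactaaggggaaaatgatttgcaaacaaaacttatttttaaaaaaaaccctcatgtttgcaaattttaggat
Rasgrf2, chr13:91974239-91974439: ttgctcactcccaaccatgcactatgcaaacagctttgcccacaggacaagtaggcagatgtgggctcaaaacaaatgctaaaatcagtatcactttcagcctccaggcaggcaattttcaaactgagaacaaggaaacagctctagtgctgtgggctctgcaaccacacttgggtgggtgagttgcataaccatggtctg

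The windows differed in base composition. The Cux2 window held 7 CG dinucleotides at 56.7% GC, the Cux1 window 1 at 39.8%, the Foxp2 window 2 at 35.3%, and the Rasgrf2 window none at 48.3%. The AP-1 motif was in none of these windows, and 15.1% of the windows of all 170178 regions held it.

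The libraries held 4205665 to 11028713 reads on genes. In batch 1 the INTACT libraries were deeper, with 8621143 to 11028713 reads against 4853224 to 6066759 in the FANS libraries, and fewer of their reads fell outside annotated features (71.3 to 72.7% against 79.4 to 81.7%). In batch 2 the share outside features was 77.4 to 78.9% in INTACT against 79.4 to 81.6% in FANS. In batch 3 it overlapped, at 81.9 to 83.0% in INTACT (median 82.3%) against 80.0 to 85.1% in FANS (median 81.1%). FANS replicates 6 and 7 had the highest shares of batch 3 (83.3 and 85.1%). Values are normalized counts scaled within each batch, so techniques were compared within a batch only. The label of neuronal nuclei was checked against marker lists. Markers of excitatory neurons, 6 genes, summed to between 13829.5 and 20782 normalized counts per library over all 3 batches, and markers of inhibitory neurons, 7 genes, to between 124 and 535. Markers of non-neuronal cells were present as well, with sums of 4900.1 to 7688 for 6 astrocyte genes and 1612 to 14764 for 6 oligodendrocyte genes, the former made up mostly of Slc1a2 (group means of 5773 to 7347), while 4 vascular genes reached at most 21.2. No listed marker was at 0 in all libraries.

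In RNA, the differences of the layer genes between techniques were under 1.5-fold in each batch. In batch 1, 3 of 10 members changed at an adjusted p under 0.05 by limma across all genes, with Cux1 and Bcl11b lower and Fezf2 higher in INTACT-nuclei. Over all 15114 genes tested in that batch 36.1% changed, with 18.6% of all genes higher and 17.5% lower in INTACT, so 3 of 10 is close to the background. No member passed an additional threshold of 1.5-fold, which 7.97% of all genes passed. In batch 2, none of the members changed by limma, edgeR or DESeq2, 2 had an unadjusted p under 0.05, and 1.14% of all genes changed (0.128% with 1.5-fold). In batch 3, none changed by limma or edgeR, 1 did by DESeq2 (Tle4), 4 had an unadjusted p under 0.05, and 1.7% of all genes changed (0.36% with 1.5-fold). These calls moved with single libraries, and so did the background, from 170 genes to between 21 (INTACT replicate 1 omitted) and 333 (FANS replicate 2 omitted) in batch 2 and from 246 to between 101 (INTACT replicate 3 omitted) and 484 (FANS replicate 4 omitted) in batch 3. Cux1 passed in batch 2 without FANS replicate 2 (adjusted p = 0.0465 by limma), and Tle4 passed in batch 3 without FANS replicate 6 (adjusted p = 0.0356) or 7 (adjusted p = 0.0486). Without both of these FANS libraries, Cux2 (0.24, adjusted p = 0.0224), Tbr1 (-0.19, adjusted p = 0.0485) and Tle4 (-0.23, adjusted p = 0.0186) passed in batch 3 by limma. Fewer nuclei of a layer and less RNA per nucleus cannot be told apart in these bulk libraries.

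**Figure D1:**
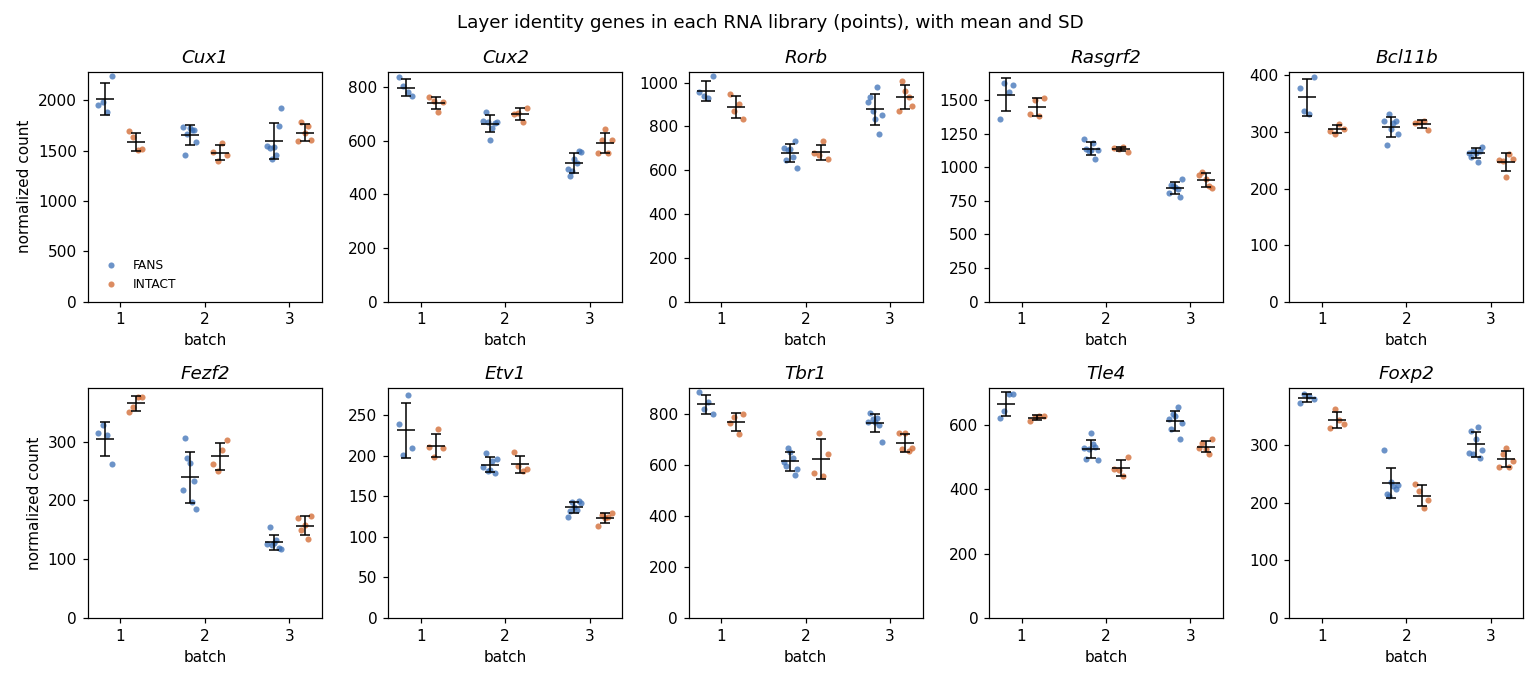
Normalized counts of the 10 layer genes in each of the 31 nuclear RNA-seq libraries, with batches 1 to 3 along the horizontal axis of each panel; each point is a FANS or INTACT library, and the bars give the group mean and SD. In batch 1 the Cux1 points of INTACT-nuclei lie between 1504 and 1692, all under the FANS points (1886 to 2242), and the Fezf2 points of INTACT-nuclei lie above those of FANS-nuclei.

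Cux1, which with Cux2 specifies upper-layer dendrites and synapses, had the clearest difference in batch 1. Its normalized counts in batch 1 were 1951, 1985, 1886 and 2242 in the FANS libraries and 1692, 1641, 1504 and 1517 in the INTACT libraries. The ranges did not overlap, and the level in INTACT-nuclei was 0.789 times that in FANS-nuclei (log2 difference -0.34, SE 0.055, adjusted p = 2.01e-05 by limma). In batch 2 the FANS libraries ran from 1455 through a median of 1702 to 1733, and the INTACT libraries held 1485, 1396, 1579.6 and 1462. That difference pointed the same way but did not pass the threshold (-0.16, SE 0.055, adjusted p = 0.145 by limma). Batch 3 did not show it, with FANS libraries from 1418 through 1539 to 1921 and INTACT libraries at 1599.6, 1782, 1672, 1742 and 1602 (0.08, SE 0.062, adjusted p = 0.613 by limma). FANS replicates 6 and 7 held the highest FANS counts there (1743 and 1921). The fit with the replicate number as a block, which leaves them out, gave 0.16. The Cux1 locus also gives rise to the CASP transcript and contains the microRNA gene Mir721, listed with means of 2.19 to 4.14 normalized counts, and reads of antisense genes inside it cannot be separated because the strand setting of the counting is not given in the sources used here.

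Cux2, the paralog of Cux1, differed less than Cux1 in batches 1 and 2 and more in batch 3. Its difference was negative in batch 1 and positive in batches 2 and 3. In batch 1 its counts were 837, 803, 779.5 and 767 in FANS-nuclei and 761, 747, 707 and 743 in INTACT-nuclei, ranges that stood just apart (log2 difference -0.11, 95% interval -0.22 to 0.01, adjusted p = 0.133 by limma). In batch 2 the FANS libraries spanned 603 to 708 with a median of 670.2, around the INTACT values of 700.5, 701, 669 and 722 (0.08, adjusted p = 0.557). In batch 3 the FANS libraries spanned 466.3 to 559 with a median of 518, and the INTACT libraries held 553, 603, 643, 554 and 602. Most INTACT values of batch 3 thus lay above the FANS libraries, by 0.19 on the log2 scale (SE 0.062), without passing the threshold (adjusted p = 0.109 by limma).

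Rorb and Rasgrf2 did not pass the test in any batch over all libraries, and Rasgrf2 passed in batch 1 without FANS replicate 1 (adjusted p = 0.0335 by limma). Rorb held 957, 939, 928 and 1029 in the FANS libraries of batch 1 and 949.9, 870.4, 905 and 834 in the INTACT libraries, which overlap (log2 difference -0.11, adjusted p = 0.111 by limma). Its intervals were -0.11 to 0.13 in batch 2 and -0.03 to 0.21 in batch 3. Rasgrf2 overlapped between techniques in all 3 batches, with intervals of -0.20 to 0.03, -0.11 to 0.10 and -0.01 to 0.21. Of the upper-layer members, Cux1 in batch 1 was therefore the one with a change.

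Fezf2, the selector gene of subcerebral projection neurons, had higher mean counts in INTACT-nuclei in each batch. In batch 1 the FANS libraries held 315, 329, 311 and 263 and the INTACT libraries 350.4, 359, 376 and 376. All 4 INTACT values exceeded all FANS values, and Fezf2 rose by 0.27 on the log2 scale (SE 0.077, adjusted p = 0.0079 by limma), 1.2-fold. In batch 2 the FANS libraries ran from 186 through 233 to 307, and the INTACT libraries held 261, 251, 285 and 302, inside that range (0.21, 95% interval 0.00 to 0.43, adjusted p = 0.331 by limma). In batch 3 the FANS libraries ran from 118 through 126 to 154, and the INTACT libraries held 169.8, 150.1, 157, 134 and 174 (0.28, 95% interval 0.09 to 0.47, adjusted p = 0.122 by limma). The direction was thus shared by the batches, while the groups were fully apart in batch 1 only.

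Bcl11b, which acts downstream of Fezf2 in the same neurons, moved the other way in batch 1. Its counts there were 378, 337, 331 and 397 in FANS-nuclei and 302, 297, 314 and 305 in INTACT-nuclei, without overlap, so that Bcl11b fell by 0.24 on the log2 scale (SE 0.075, adjusted p = 0.0136 by limma). Batches 2 and 3 gave differences of 0.03 (adjusted p = 0.902) and -0.09 (adjusted p = 0.615), with overlapping libraries. Etv1 overlapped in all batches, with differences of -0.11, 0.00 and -0.14 and adjusted p-values from 0.394 to 0.989 by limma.

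The layer 6 genes were lower in INTACT-nuclei in most comparisons, although none passed the limma test within a batch over all libraries. Tle4 held 621, 642, 695 and 695 in the FANS libraries of batch 1 and 612, 626, 626 and 627 in the INTACT libraries (log2 difference -0.09, adjusted p = 0.243 by limma). In batch 2 its FANS libraries ran from 490.4 through 529 to 573, against INTACT values of 462, 459, 442 and 500.5 (-0.17, adjusted p = 0.148). In batch 3 the FANS libraries ran from 557 through 619 to 654 and the INTACT libraries held 528, 543, 524, 510.2 and 556, so that the highest INTACT library lay just under the lowest FANS library (-0.20, SE 0.056, adjusted p = 0.0626 by limma and 0.0188 by DESeq2). Foxp2 had counts of 373, 389, 384 and 381 in FANS-nuclei and 329, 362, 344 and 336 in INTACT-nuclei of batch 1, without overlap (-0.16, adjusted p = 0.0745). Its differences in batches 2 and 3 were of similar size, -0.14 and -0.13, with overlapping libraries. In batch 2, FANS replicate 1 stood apart from the other FANS libraries (290, the next 236) and adds to that difference. Tbr1 differed by -0.13 in batch 1 (adjusted p = 0.0831), 0.01 in batch 2 and -0.15 in batch 3 (adjusted p = 0.171), and its FANS and INTACT values in batch 1 were separate by less than 1 count. Without FANS replicate 4 of batch 1 it passed (-0.15, adjusted p = 0.0381 by limma).

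Counted by overlap, 5 members (Cux1, Cux2, Bcl11b, Tbr1 and Foxp2) had every INTACT library of batch 1 under every FANS library, and 1 (Fezf2) had the reverse. Over all genes tested in that batch, 16.5% and 17.1% did so. In batch 2 no member separated in either direction, against 1.4% and 1.59% of all genes. In batch 3 Tle4 was lower in INTACT without overlap and no member was higher, against 0.589% and 0.997% of all genes. The median log2 difference of the members was -0.11 in batch 1, 0.01 in batch 2 and -0.004 in batch 3, beside medians over all genes of 0.01, -0.0008 and -0.004. In batch 1, 9 of 10 members had a lower mean in INTACT-nuclei.

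**Figure D2:**
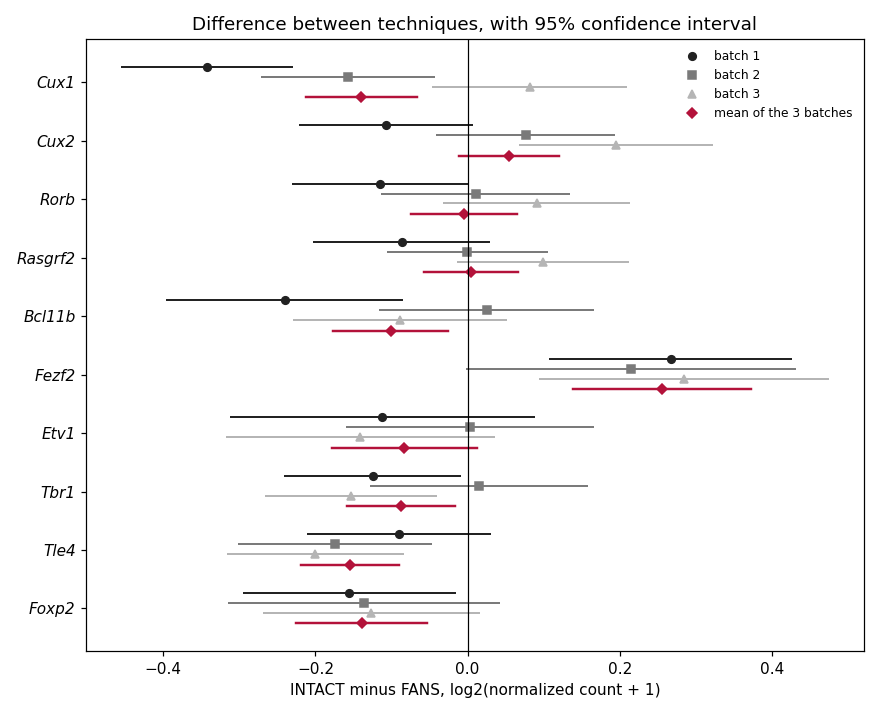
Difference between INTACT-nuclei and FANS-nuclei on the log2(normalized count + 1) scale for each layer gene, by batch and as the mean of the 3 batches, with unadjusted 95% intervals from limma; values over 0 are higher in INTACT. Fezf2 lies over 0 in every batch, Cux1 runs from -0.34 in batch 1 to 0.08 in batch 3, and Cux2 from -0.11 to 0.19.

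Whether the technique difference itself changed between batches was tested with interaction contrasts over all 31 libraries. Cux1 and Cux2 differed between batch 1 and batch 3. For Cux1 the technique difference in batch 1 was lower than that in batch 3 by 0.42 on the log2 scale (estimate -0.42, SE 0.090, 95% interval -0.60 to -0.24, adjusted p = 4.53e-04 by limma), and for Cux2 by 0.30 (estimate -0.30, SE 0.081, 95% interval -0.46 to -0.14, adjusted p = 0.0049 by limma). Rasgrf2 (-0.19, adjusted p = 0.0715) and Rorb (-0.21, adjusted p = 0.0763), the other upper-layer members, did not pass. Thus 2 of 10 members passed, beside 23.3% of the 14332 genes tested in all batches. Between batches 1 and 2 no member passed by limma or edgeR, 2 had an unadjusted p under 0.05, and 6.3% of all genes passed. Between batches 2 and 3 no member passed by either tool and 2 had an unadjusted p under 0.05 by limma, while 0.0% of all 14332 genes passed by either tool and 1831 (limma) and 1836 (edgeR) had an unadjusted p under 0.05.

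Cell type markers moved with technique in batch 1 as well. The summed level of the 6 oligodendrocyte markers was 9260 to 9752 in INTACT-nuclei against 5879 to 7232 in FANS-nuclei, with 4 of 6 genes higher at an adjusted p under 0.05, and that of the 6 astrocyte markers was 7514 to 7688 against 6179 to 6857, also with 4 of 6. Behind that sum, which is mostly Slc1a2 (log2 difference 0.21), Slc1a3, Aqp4 and Gja1 rose by 1.52, 1.74 and 2.07 on the log2 scale (adjusted p = 2.32e-08, 1.06e-05 and 2.29e-07 by limma). Inhibitory markers summed to 362 to 404 against 223 to 297 (4 of 6 tested higher), striatal markers to 411 to 431 against 303 to 391 (2 of 6 higher), and excitatory markers to 14255 to 14949 against 18656 to 20782 (2 of 6 higher and 3 lower). The lower excitatory sum was mostly that of Arpp21, with means of 11276 in FANS-nuclei and 6540 in INTACT-nuclei, while Slc17a7, the vesicular glutamate transporter, rose from 1746 to 2462. Microglial markers summed to 57.4 to 74.4 against 75.9 to 110, through P2ry12 alone (means of 73.8 in FANS-nuclei and 35.5 in INTACT-nuclei, -1.01, adjusted p = 3.32e-04 by limma). The other microglial markers, Cx3cr1, Csf1r and Tmem119, had higher means in INTACT-nuclei, and none of them passed the threshold. Thalamic markers summed to 702 to 751 against 782 to 885, almost all of it Rora (means of 818 and 701, -0.22, adjusted p = 0.00266 by limma). Tcf7l2 and Prkcd had higher and Lef1 had lower means in INTACT-nuclei, all at low counts. The oligodendrocyte precursor markers, 2 genes, summed to 20.6 to 32.9 against 5.15 to 19.9, with Pdgfra higher (1.90, adjusted p = 3.32e-04). Vtn, the only vascular marker tested, rose at low counts (means of 3.82 and 9.53, 1.42, adjusted p = 0.0483 by limma) and was not called by DESeq2. The 10 layer genes summed to 7112 to 7387 against 7916 to 8399. In batch 2, 2 of 6 oligodendrocyte markers and 1 of 6 astrocyte markers were higher in INTACT-nuclei, and in batch 3 none of either list by limma, with overlapping sums in both batches. In batch 3, 3 oligodendrocyte markers and no astrocyte marker had an unadjusted p under 0.05, and edgeR and DESeq2 each called 1 oligodendrocyte and no astrocyte marker. Striatal markers went the other way in the later batches, with lower means in INTACT-nuclei for all 6 tested in batch 2, of which none passed, and for all 5 tested in batch 3, of which Drd1, a dopamine receptor gene, fell (-0.63, adjusted p = 0.0054 by limma). Their sums overlapped in both (236 to 305 against 267 to 359.7 in batch 2, and 124 to 187 against 174 to 237 in batch 3). The part of these cells, of read depth and of RNA quality in the differences of the layer genes was not tested.

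Since single batches were small, the mean technique difference over the 3 batches was estimated in the joint model, a comparison added after the values had been seen. Fezf2 was higher in INTACT-nuclei by 0.26 (SE 0.058, adjusted p = 7.83e-04 by limma). Tle4 was lower by 0.15 (estimate -0.15, SE 0.032, adjusted p = 2.34e-04), and Cux1 (-0.14, adjusted p = 0.00316), Foxp2 (-0.14, adjusted p = 0.0129) and Bcl11b (-0.10, adjusted p = 0.0417) were lower too. Thus 1 member was higher and 4 were lower, beside 12.7% and 12.4% of all genes. In the same model 6 of 6 oligodendrocyte and 4 of 6 astrocyte markers were higher in INTACT-nuclei. Among 6 excitatory markers 1 was higher (Slc17a7) and 2 were lower (Arpp21 and Camk2a). The inhibitory marker Sst and the precursor marker Pdgfra were higher, and the microglial marker P2ry12 was lower. The calls of Fezf2, Tle4, Cux1 and Foxp2 held in each of 31 fits that left out a library (highest adjusted p 0.0029, 7.34e-04, 0.0112 and 0.0321). Bcl11b lost its call in 14 of them (adjusted p up to 0.100) and with edgeR (adjusted p = 0.0534). Over batches 2 and 3 alone, Fezf2 (0.25, adjusted p = 0.0165) and Cux2 (0.14, adjusted p = 0.0211) were higher and Tle4 (-0.19, adjusted p = 5.94e-04) was lower in INTACT-nuclei, beside 4.44% and 1.46% of all genes. There 5 of 6 oligodendrocyte markers and 1 of 6 astrocyte markers were higher, and 1 of 5 striatal markers (Drd1) was lower. Over these batches the Cux1 difference was -0.04 (adjusted p = 0.712), that of Bcl11b -0.03 (adjusted p = 0.780) and that of Foxp2 -0.13 (adjusted p = 0.119). Fezf2 and Tle4 were therefore the members that passed both with and without batch 1.

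Levels were compared between genes per kb of annotated exon. Tbr1 had the highest mean over the 31 libraries, at 179 normalized counts per kb, followed by Rasgrf2 (147), Cux2 (125), Tle4 (117), Cux1 (108), Fezf2 (99.98) and Rorb (87.7). Foxp2 (40.4), Etv1 (39.8) and Bcl11b (37.3) were lowest. Tbr1 stood first in all 6 groups, and its libraries overlapped those of Rasgrf2, the next in order, in both techniques of batches 1 and 2, but were clear of the next gene in batch 3. In the middle of the order neighbours mostly overlapped, as with Cux2, Tle4, Cux1 and Fezf2 in the FANS libraries of batch 2. The 3 lowest genes stayed below all others in every group. Fezf2 varied most over the series, with a highest library 3.2 times the lowest and means per kb of 145 in batch 1, 109.5 in batch 2 and 61 in batch 3. Etv1 varied 2.43 times and the other members 1.57 to 2.1 times. Because batches were scaled separately, a level set across batches is a description. Nuclear RNA includes unspliced transcripts, which exon length does not cover.

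A wider list of layer genes, not including the members, gave the setting. Of 20 upper-layer genes, 5 rose and 4 fell in INTACT-nuclei of batch 1, none changed in batch 2 by limma, and 1 rose in batch 3, beside 36.1%, 1.14% and 1.7% of all genes changed in batches 1 to 3. Of 15 layer 5 genes, 4 rose and 2 fell in batch 1, 1 rose in batch 2 and none changed in batch 3. Of the genes of layers 6 and 6b, 3 rose and 5 fell among 17 tested in batch 1, none changed among 17 in batch 2, and 2 fell among 15 in batch 3. Median log2 differences of the upper-layer list were 0.09, 0.10 and -0.06 in batches 1 to 3, those of the layer 5 list 0.02, 0.13 and -0.04, and those of the layer 6 list 0.005, -0.09 and -0.16. By limma, unadjusted p-values under 0.05 numbered 5 for the upper-layer list in batch 2, 2 for the layer 5 list in batch 3 and 5 for the layer 6 list in batch 2, where DESeq2 called 1, 1 and 0 genes and edgeR none. In batch 3, all 15 tested layer 6 genes had lower means in INTACT-nuclei, of which 2 passed by limma. The median log2 difference over all genes was -0.004 in that batch. The summed level of the 18 listed genes was 3306 to 3466 against 3590 to 3879 in FANS-nuclei, without overlap. In that batch 5 of 5 striatal and 5 of 6 inhibitory markers tested also had lower means, with no inhibitory marker past the threshold by limma, edgeR or DESeq2 and 1 at an unadjusted p under 0.05 by limma (Gad1, -0.42, adjusted p = 0.144), and their part in the layer 6 values was not tested. The layer 6 sum did not overlap in batch 1 either (4464 to 4730 against 4983 to 5248), mostly through Foxp1 (means of 1461 and 1205) and Sox5 (581 and 375), while 9 of 17 genes tested had higher and 8 lower means in INTACT-nuclei, and it overlapped in batch 2 (3638 to 3718 against 3711 to 4041).

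Among these genes, Plxnd1, a semaphorin receptor of upper-layer neurons, rose in batches 1 and 3 (log2 differences 0.25 and 0.28, adjusted p = 0.00156 and 0.0085 by limma) and differed by 0.20 in batch 2 (adjusted p = 0.0672). Sulf2, a heparan sulfate editing enzyme, rose in batches 1 and 2 (0.45 and 0.29, adjusted p = 1.97e-06 and 0.0343) and not in batch 3 (-0.04). Tshz2, a zinc-finger gene of deep layers, fell in batches 1 and 3 (-0.57 and -0.36, adjusted p = 0.00261 and 0.0474) and differed by -0.30 in batch 2 (adjusted p = 0.106). Among those past 1.5-fold, Ctgf (0.85), Parm1 (0.79) and Nxph3 (0.65) rose and Sox5 (-0.63) fell in batch 1. Sox5, a SOX factor of deep-layer neurons, went from a mean of 581 to 375 normalized counts (adjusted p = 1.26e-07). Rprm (-0.70, adjusted p = 0.0123) fell in batch 3. The largest differences of the remaining list and batch combinations were those of Pou3f1 in batch 1 (0.52, adjusted p = 0.0222), Scnn1a (0.43, adjusted p = 0.306) and Cplx3 (0.84, adjusted p = 0.230) in batch 2, and Tcerg1l (0.37, adjusted p = 0.471) in batch 3. In the mean over batches, 3 upper-layer genes rose and 4 fell, 3 layer 5 genes rose and 1 fell, and 1 layer 6 gene (Ctgf) rose while 6 (Foxp1, Sox5, Sulf1, Syt6, Tshz2 and Zfpm2) fell among 15, beside 12.7% of all genes higher and 12.4% lower.

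With group means removed, the members varied over the 31 libraries largely apart from each other. The 45 pairs had a median Pearson r of -0.05, from -0.43 (Cux1 and Fezf2) to 0.47 (Bcl11b and Cux1). Among the 9611 genes whose mean reached 50 in each batch, the patterns most like those of the members were Tanc2 (r = 0.83) and Pcsk2os2 (0.81) for Cux1, Dvl3 (0.82) and Baiap2 (0.76) for Cux2, Ppt1 (0.65) and Aftph (0.64) for Rorb, and Acer3 (0.67) and 1200014J11Rik (0.66) for Rasgrf2. For the layer 5 members they were Zeb2 (0.72) and Chml (0.66) for Bcl11b, Tmem55b (0.74) and Tctn3 (0.65) for Fezf2, and Dnaja1 (0.66) and Traip (0.64) for Etv1. For layer 6 they were Reep2 (0.69) and Cyb5a (0.68) for Tbr1, Zfp846 and Zfp260 (both 0.65) for Tle4, and Cops3 (0.64) and Nkrf (0.57) for Foxp2. These values are descriptions over the same 31 libraries, and the part of library depth and RNA quality in them was not tested.

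In ATAC-seq, fewer peaks lay over the layer genes in INTACT-nuclei. The FANS lists held 150, 157 and 158 peaks over the members and the INTACT lists 104, 92 and 115, or 155 ± 4.36 against 103.7 ± 11.5 (SD, n = 3 technical replicates). These did not overlap, and the exact two-sided permutation test gave p = 0.1, the smallest that 3 against 3 allows. Summed over all genes, the FANS lists held 89754 ± 2287 peaks and the INTACT lists 74658 ± 7748, which did not overlap either (exact permutation p = 0.1), a ratio of 0.832 beside 0.669 for the members. The whole lists held 127531 ± 3459 and 112211 ± 12222 peaks and did overlap (exact permutation p = 0.2). As a share of each list, the members took 0.122% ± 0.000225 in FANS and 0.0924% ± 0.000488 in INTACT (exact permutation p = 0.1). The depth of these libraries is unknown, since peak lists hold no read counts.

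The deficit was not spread evenly over the members. Peaks over Cux2 numbered 23, 28 and 28 in the FANS lists and 5, 2 and 6 in the INTACT lists, and those over Cux1 33, 39 and 35 against 15, 8 and 16. In both genes every INTACT list lay far under every FANS list, whereas Rasgrf2, an upper-layer gene with a longer body than Cux2, held 20, 23 and 24 against 20, 19 and 23. Rorb held 17 in each FANS list and 16, 13 and 14 in the INTACT lists. Among layer 5 genes, Bcl11b went from 18, 16 and 19 to 8, 9 and 11, and Fezf2 from 6, 6 and 4 to 3 in each list. Etv1 had the opposite pattern, with 3, 3 and 5 peaks in FANS and 6, 6 and 10 in INTACT. Among layer 6 genes, Foxp2 had more peaks in INTACT (23, 22 and 24) than in FANS (17, 14 and 17), Tbr1 went from 4 in each list to 3, 3 and 2, and Tle4 overlapped (9, 7 and 5 against 5, 7 and 6).

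In all, 6 of 10 members had fewer peaks in every INTACT list than in every FANS list, and 2 had more. Over the 20380 genes with a peak in at least 1 list, 17.6% and 2.66% did so. That background depends on how many peaks a gene holds. Among the 1738 genes that held 10 or more peaks on average the shares were 40.0% and 8.98%, beside 4 and 1 of the 6 members in that class. Peaks were wider in INTACT, with median widths of 477 ± 28.2 bases against 439 ± 5.29 in FANS (exact permutation p = 0.1). Peaks covered 59041 ± 3165 bases over the members in INTACT and 77868 ± 3782 in FANS (exact permutation p = 0.1). Covered bases overlapped between techniques for Rorb, Fezf2 and Tbr1, and were lower in INTACT without overlap for Cux1, Cux2 and Bcl11b.

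**Figure D3:**
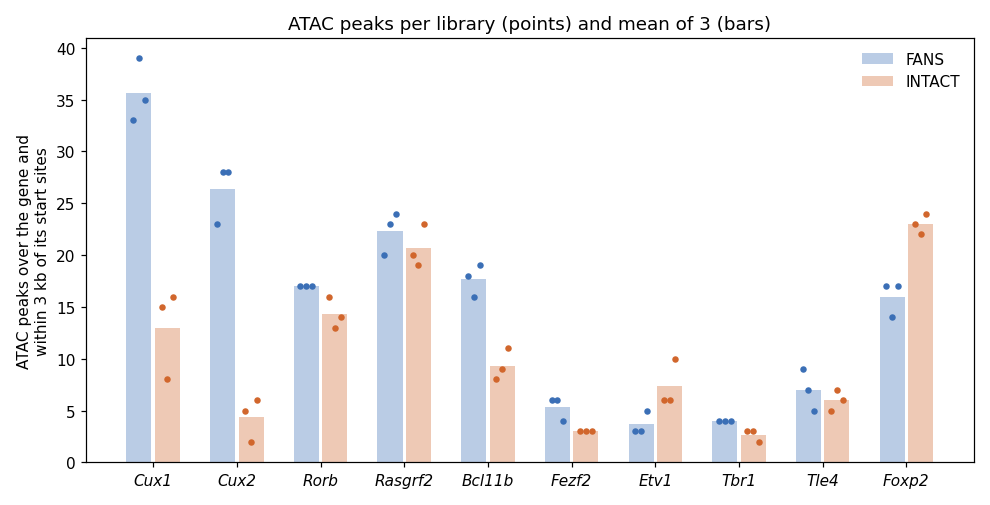
Number of ATAC-seq peaks over each layer gene and within 3 kb of its start sites in the 3 FANS and 3 INTACT lists; each point is a technical replicate and bars are means. Cux1 and Cux2 show the widest gap, with 33 to 39 and 23 to 28 peaks in FANS against 8 to 16 and 2 to 6 in INTACT, while Foxp2 and Etv1 lie higher in INTACT.

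Most start sites had a peak with both techniques. A peak was found within 3 kb of 14 of the 16 start sites in each FANS list and of 14, 15 and 14 in the INTACT lists, a mean difference of 0.333 that turned to -0.667 with peaks of a -log10 q of at least 5 (exact permutation p = 0.7). The heights, which are fold enrichments at the summit, were lower in INTACT, with a mean of the tallest start-site peak per gene of 9.49 ± 0.151 against 7.99 ± 0.527 (SD, n = 3, exact permutation p = 0.1). The tallest start-site peak of Cux2 had heights of 8.83, 8.48 and 9.24 in FANS and 3.82, 6.18 and 4.86 in INTACT, that of Cux1 9.53, 9.08 and 8.77 against 8.15, 5.64 and 6.55. With Rasgrf2 (13.6 ± 0.442 against 10.2 ± 1.06) and Tle4 (18.4 ± 0.347 against 17.3 ± 1.04), these 4 of 10 members were lower without overlap, and none was higher. Over the 15747 genes with a start-site peak in all lists, 53.7% were lower and 1.82% higher, so the members were not set apart by this. At Fezf2 the heights were 3.75 ± 0.622 and 3.53 ± 0.547, and at Tbr1 5.23 ± 0.197 and 5.26 ± 0.729.

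Merged over the lists, the 205 regions of the members comprised 190 in introns, 7 in exons and 8 outside the genes, and 21 lay within 3 kb of a start site. A peak in all 6 lists was found in 66 of them (32.2%), against 45.0% of all regions. A peak in each FANS list and in no INTACT list was found in 29 (14.1%), against 5.01% of all regions, and the reverse in 2 (0.976%), against 1.4%. Of the 29 regions, 15 were in Cux2, 11 in Cux1, 2 in Bcl11b and 1 in Tbr1, and both regions of the reverse pattern were in Foxp2. The other 5 members, Rorb, Rasgrf2, Fezf2, Etv1 and Tle4, had none of either pattern.

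**Figure D4:**
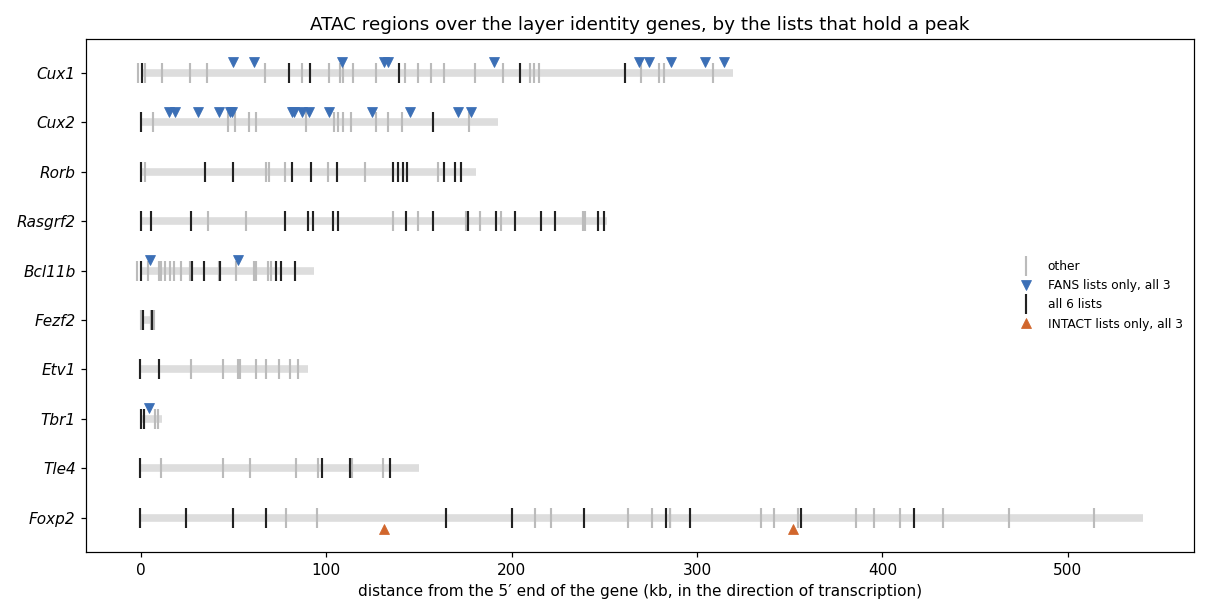
Merged ATAC regions along each layer gene, by distance in kb from the 5′ end in the direction of transcription; grey bars are gene bodies, black ticks regions with a peak in all 6 lists, blue triangles regions in each FANS list and no INTACT list, orange triangles the reverse, and grey ticks other combinations. The 15 blue triangles of Cux2 and 11 of Cux1 are spread along both genes, and the 2 orange triangles are in Foxp2.

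All 26 FANS-only regions of Cux1 and Cux2 were intronic, and none lay within 3 kb of a start site. In Cux2 they ran from 12.4 to 175 kb inside the nearest start, with mean heights from 3.70 to 8.53. The taller ones were chr5:121871731-121872582 (8.53), chr5:122008107-122008545 (7.38), chr5:121963009-121963392 (6.86) and chr5:121967580-121967815 (6.06). The rest of Cux2 were chr5:122000352-122001866, chr5:122034963-122035565, chr5:122031580-122032308, chr5:122019382-122019739, chr5:121904792-121905318, chr5:121959708-121960015, chr5:122002131-122002494, chr5:121878872-121879629, chr5:121925412-121925995, chr5:121968463-121968763 and chr5:121948486-121949011, in falling order of height. They were thus spread along the whole gene, which runs from chr5:121857962 to 122050415 on the minus strand.

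In Cux1 (chr5:136248135-136567590, minus strand) the FANS-only regions ran from 48.3 to 313 kb inside the nearest start, with mean heights from 3.43 to 13.4. The tallest, chr5:136506253-136506617, had heights of 12.1, 15.0 and 13.1 in the FANS lists, above the mean start-site height of the same gene, and holds the Cux1 window printed above. It was followed by chr5:136517485-136517906 (8.98), chr5:136252847-136253313 (7.86) and chr5:136433850-136434225 (7.03). The others were chr5:136263080-136263743, chr5:136458747-136459259, chr5:136298670-136299265, chr5:136281450-136281726, chr5:136292950-136293453, chr5:136435944-136436344 and chr5:136376963-136377288. In Bcl11b they were chr12:107998727-107999108 (5.38) and chr12:107951277-107951650 (3.30), both intronic, and in Tbr1 chr2:61807172-61807497 (2.65), in an exon. The INTACT-only regions of Foxp2 were chr6:15252948-15253266 (3.73) and chr6:15032410-15032876 (3.22), both intronic and low, and neither remained with a stricter peak threshold (a -log10 q of at least 5).

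Among the 2706 genes with at least 10 regions, Cux2 ranked 11th by its FANS-only share (48.4%) and Cux1 118th (26.2%), Bcl11b ranked 636th (8.33%), and the median gene had none. The ranks place the members and are not a test. Heights were compared over the regions shared by all 6 lists. All 6 such regions of Cux1 and both of Cux2 were lower in INTACT without overlap, with median ratios of INTACT to FANS height of 0.645 and 0.618. Bcl11b had a median ratio of 0.767 over 7 regions, Rorb 0.898 over 13 and Rasgrf2 0.982 over 17. The ratios of Tle4, Fezf2, Etv1 and Tbr1, over 2 to 4 regions each, were 0.994, 0.974, 1.01 and 1.07. Foxp2 had 1.10 over 11, and 5 of these were higher in INTACT without overlap. Over all members, 19 of the 66 regions were lower (28.8%) and 5 higher (7.58%), beside 32.8% and 8.68% of all regions present in the 6 lists, with median ratios of 0.957 and 0.899.

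The tallest region of each member gave a further description. It was the intronic Rasgrf2 region chr13:91974014-91974547 (mean height 23.1 over the 6 lists), with 24.2, 24.8 and 26.0 in FANS and 21.1, 19.2 and 23.6 in INTACT, then those of Foxp2 (chr6:15101453-15101917, 19.6), Tle4 (its start site, chr19:14597750-14598936, 17.8) and Etv1 (chr12:38789674-38790278, 17.7). Rorb (chr19:19005016-19005755, 15.7), Cux1 (chr5:136476085-136476690, 14.5), Cux2 (chr5:122043551-122044086, 13.0) and Bcl11b (chr12:107969777-107970378, 9.92) followed. Fezf2 (chr14:12340187-12340722, 5.32) and Tbr1 (chr2:61802612-61803311, 5.20) were lowest, although Tbr1 had the highest RNA level per kb. The Cux2 region had a peak in all 3 FANS lists and in 2 INTACT lists. All of these but those of Tle4 and Tbr1 lay more than 3 kb from a start site.

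Over all regions, the FANS-only share was higher at higher GC content, from 1.06% in the lowest quintile to 2.72%, 4.99%, 8.07% and 8.19% in the highest, while the INTACT-only share was lower, from 4.52% to 1.54%, 0.626%, 0.212% and 0.0881%. The median GC content of regions was 56.0% in Cux2, 48.4% in Cux1, 52.6% in Bcl11b, 44.7% in Rasgrf2, 43.4% in Rorb and 41.5% in Foxp2, beside 47.0% over all regions. The members with FANS-only regions named here were thus richer in GC than the median region, and Foxp2, with the INTACT-only regions (median 36.5%), was poorer. Fezf2, at 55.9% over 5 regions, had none. Within Cux1 the FANS-only regions had a median of 47.9%, just under that of all its regions, and the regions within 1 Mb outside the gene had a higher median (53.7%) and a lower FANS-only share (13.4% against 26.2%). In the quintiles from low to high, Cux1 and Cux2 together had 1 of 2, 1 of 6, 5 of 16, 6 of 18 and 13 of 31 regions in the FANS-only class, above the share of all regions in the same quintile. The AP-1 motif was found in 6.90% of the members' FANS-only windows (2 of 29), in 15.2% of their windows present in all lists and in 15.1% of all windows.

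**Figure D5:**
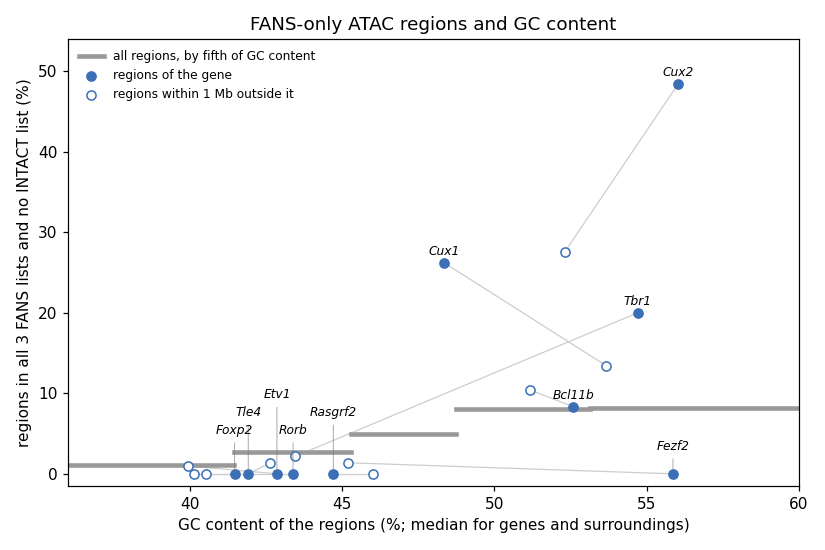
Share of ATAC regions with a peak in each FANS list and no INTACT list, against GC content of the regions; grey bars are GC quintiles of all regions (the outermost are cut at the axis ends), filled points the regions of a layer gene at their median GC content, and open points, joined by lines, the regions within 1 Mb outside that gene. Cux2 (48.4%) and Cux1 (26.2%) lie above their surroundings (27.6% and 13.4%), and the grey bars climb from 1.06 to 8.19%; the Tbr1 point stands for 1 of 5 regions.

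The neighbourhood of the members was counted as well. Within 1 Mb on either side but outside the gene, 27.6% of 261 regions around Cux2 and 13.4% of 179 around Cux1 were FANS-only, as were 10.4% of 173 around Bcl11b, against none of 72 around Rorb, none of 200 around Rasgrf2 and none of 68 around Foxp2. Inside the genes the shares were 48.4% for Cux2, 26.2% for Cux1 and 8.33% for Bcl11b. INTACT-only regions made up 5.88% of the neighbourhood of Foxp2 and 7.77% of that of Etv1. Cux1 and Cux2 both lie on chromosome 5, where 8.24% of regions were FANS-only, within a range over chromosomes from 0.205% (X) to 10.5% (7), leaving aside chromosome Y with 22 regions. The part of GC content, of the neighbourhood and of the number of peaks called per library in the patterns of Cux1, Cux2 and Foxp2 was not tested. RNA and ATAC-seq came from different libraries, and no test joined them. For Cux1 the peaks were fewer in INTACT-nuclei, and its RNA was lower in batch 1 and not in batch 3. For Fezf2 RNA was higher in batch 1 while peaks were fewer, and for Cux2 RNA passed in no single batch over all libraries and was higher over batches 2 and 3 (0.14, adjusted p = 0.0211 by limma), while the number of peaks in INTACT stood at 4.33 ± 2.08 against 26.3 ± 2.89.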

How the data were processed

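Nuclear RNA-seq (31 of 33 labelled libraries; 2 were not analysed here) and ATAC-seq (6 libraries) were analysed from the deposited tables and peak lists. Per the study's methods and the submitters' processing notes (FastQC, STAR, HTSeq, DESeq, MACS2, mm10), the authors aligned single-end RNA reads to mm10, removed duplicates by molecular identifier, counted reads per gene and scaled the counts within each batch. These deposited values are a signal in scaled counts, listed for 24421 genes; 99.99 to 100% of them were whole reads after division by the size of 1 read (tolerance 0.1 reads), which gave the depths and the input of the count tests. The rows that name no gene were kept out of all tests and held 74.8 to 88.0% of the reads. The columns of the authors' comparisons were not used. No column of per-sample values was left unused (0 columns).

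For ATAC-seq the authors mapped read pairs to mm10, removed duplicates and called peaks in each library separately. The deposited peak lists give a fold enrichment at the summit (a ratio, called height here), a −log10 of the p-value and a −log10 of the q-value. The deposited score of each peak was not used. Peaks of the 6 lists were merged into regions where they shared 1 base.

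RNA was tested with limma 3.58.1 (R 4.3.3) on log2(normalized count + 1) per batch, for genes with a mean of at least 5, with Benjamini-Hochberg adjustment over all genes tested and a threshold of 0.05. This scale understates differences of genes with low counts. The study words its fold threshold in its text on the log2 scale and in a legend as a fold, and the fold of 1.5 was used. The joint model of 31 libraries gave interactions and means over batches. Whole reads were tested with edgeR 4.0.16 (quasi-likelihood) and DESeq2 1.42.0 as alternatives. Single ATAC values were compared with exact two-sided permutation tests in Python 3.11.15 with scipy 1.17.1. Scripts were tested on simulated data with 200 changed genes. Other alternatives were pseudocounts of 0.5 and 5, filters, scalings, the replicate number as a block, leaving out each library, a stricter peak threshold and other overlaps.

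All members were named in every comparison. Of the wider layer list, genes were named when they passed the adjusted threshold in 2 or more batches in 1 direction, passed it with 1.5-fold in a batch, or had the largest difference of their list in a batch. A further gene named by this rule is not reported here. For likeness, the 2 highest Pearson r per member were named, and of the ATAC regions the tallest of each member, those of 1 technique only and those at start sites. The members and lists were chosen with earlier results of these data known. The mean over batches, the GC content and the surroundings of 1 Mb were added after the values had been seen. Promoter sequences came from RefSeq (GRCm38.p6); 9 of 10 members had an entry, and 5932 of 5932 promoters compared were identical to the genome.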

Additional observations from a re-analysis of the deposited data

Results flagged for a closer look

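In 60 groups of 4 to 7 libraries (10 genes in 6 groups), 4 held a library that stood apart from the others by Dixon's criterion, where chance gives about 1 in 20. Tle4 in batch 1 was lowest in INTACT replicate 1 (611.64 normalized counts, the next 625.65). Foxp2 in batch 2 was highest in FANS replicate 1 (290.45, the next 235.74). Fezf2 in batch 3 was highest in FANS replicate 2 (154.27, the next 133.15). Tbr1 in batch 3 was lowest in FANS replicate 7 (691, the next 757.39).

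The difference between INTACT-nuclei and FANS-nuclei itself differed between batches 1 and 3 for both Cux genes. On the log2 scale, batch 1 minus batch 3 was -0.42 for Cux1 and -0.30 for Cux2, by a tested interaction (limma, adjusted p = 4.53e-04 and 0.0049).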

How the results depend on the processing

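The changes of Cux1, Bcl11b and Fezf2 in batch 1 kept their direction and threshold under edgeR, DESeq2, other pseudocounts, filters and scalings, the replicate block, and without each library in turn. The median log2 difference of the members there ran from -0.136 (without FANS replicate 4) to -0.108 when a library was left out, and 3 to 4 members changed, with Rasgrf2 or Tbr1 added. In batch 2 the count ran from 0 to 1 (Cux1 without FANS replicate 2). In batch 3 it ran from 0 to 1 (Tle4 without FANS replicate 6 or 7) and was 1 with DESeq2 (Tle4, adjusted p = 0.0188).

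Same-numbered FANS and INTACT libraries did not deviate together (correlations from -0.07 to 0.112, and not every library correlated best with its own number), so the numbers do not pair them. With the replicate number as a block, 3 members changed in batch 1, 0 in batch 2 and 4 in batch 3 (Cux1, Cux2, Tbr1 and Tle4). The same libraries without the block, which leave out FANS libraries that have no INTACT partner, gave 3 in batch 3 (Cux2, Tbr1 and Tle4). Over all genes, the block gave 4 higher and 0 lower in batch 2, against 166 and 20 in the same libraries without it, and 553 and 552 in batch 3, against 327 and 253. The count over all genes in batch 2, 170, was 340 with DESeq2 and 85 without the filter, and leaving out 1 library gave 21 (INTACT replicate 1 omitted) to 333 (FANS replicate 2 omitted). The corresponding count of batch 3, 246, then lay between 101 (INTACT replicate 3 omitted) and 484 (FANS replicate 4 omitted). With quantile normalization 59.2% of the calls of batch 2 were higher in INTACT, against 72.9%.

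For the mean technique effect, 5 members passed, 3 over batches 2 and 3 alone, and 4 to 5 when a library was left out. Of the single-gene values under alternatives, 19 of 610 differed in sign without a call, all with a main value of at most 0.0253.

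With peaks of a −log10 q of at least 5, the difference in start sites with a peak turned from 0.333 to -0.667 (INTACT minus FANS, exact permutation p = 0.7), and 0 INTACT-only regions remained of 2. The cause was not tested. Peak lists without read counts do not show what depth allowed, and at 3 against 3 no exact test can go below 0.1. The ATAC technical replicates came from 1 source.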
